A study of Mus musculus with 5 samples.

Results

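Immediate early response genes were described by name in the deposited RefSeq gene counts of mouse embryonic heart ventricle. The group holds 32 genes, listed by symbol with earlier results of these data known, and all 32 were found among the 18307 genes of that table. They fall into 7 roles: the AP-1 subunits and their relatives (Fos, Fosb, Fosl1, Fosl2, Jun, Junb, Jund, Atf3, Maff), the EGR zinc fingers (Egr1, Egr2, Egr3), the KLF zinc fingers (Klf2, Klf4, Klf6, Klf10), the NR4A nuclear receptors (Nr4a1, Nr4a2, Nr4a3), other transcription factors and IER proteins (Myc, Cebpb, Ier2, Ier3, Ier5), the dual-specificity phosphatases (Dusp1, Dusp2, Dusp5), and regulators that bind RNA or signal (Zfp36, Zfp36l1, Sik1, Socs3, Rhob).

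Both groups of libraries came from CD-1 embryos, CD-1 being an outbred stock, collected at embryonic day 10.5, and the labels name no genetic alteration in either. Dams in the caffeine group had been given 20 mg/kg caffeine by daily injection between embryonic days 6.5 and 9.5, so the last injection preceded collection by a day, and dams in the vehicle group had been given saline on the same days. There were 3 caffeine and 2 vehicle libraries. Each library was made from total RNA of dissected ventricles pooled over embryos of shared dams, and how many embryos or dams made up a pool is not stated. The p-values therefore measure the spread between pools, and with 2 against 3 libraries that spread is estimated from few values.

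Immediate early genes are transcribed soon after a cell is stimulated, from promoters that already carry their activators and without the need for new protein. Growth factor, calcium, stress and cyclic AMP signals reach them through kinases that act on SRF, its ternary complex partners and CREB. Many of the products are transcription factors, others are phosphatases or RNA-binding proteins that shut the same signals off, and most of the messages decay quickly. Caffeine blocks adenosine receptors and, at higher exposure, phosphodiesterases that break down cyclic AMP. Dissection of a tissue can also induce these genes, so each member is given library by library. In bulk RNA, fewer cells of a type and less RNA per cell cannot be told apart.

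Gene totals were between 21713372 and 25048122 counts per library, and the correlation of log2 CPM (counts scaled to a common library total) between libraries, across genes, ran from 0.982 to 0.992. The cardiomyocyte markers used to check the tissue were all present (10 of 10 tested). The members together took 0.136% and 0.127% of the gene total with vehicle, against 0.164%, 0.132% and 0.153% with caffeine. Jund and Zfp36l1 held the most of these counts, at 8257 and 6814 of 33952 in vehicle replicate 1. In caffeine replicate 1 they held 8088 and 9140 of 38559, so the shares rest largely on these genes.

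Promoter sequence is shown first for 3 members, because the SRF and CREB inputs named above act there. The 250 bases before the start were taken from RefSeq (GRCm38.p6) for the 24 members that had a promoter whose start lay within 200 bases of the deposited start. Capitals mark the shorter CREB site TGACG, on either strand, and the sequence TATAAA. In Dusp1 the capitals include the palindromic cyclic AMP response element TGACGTCA, which holds TGACG on each strand.
Nr4a1 (chr15:101266596-101266845, plus strand): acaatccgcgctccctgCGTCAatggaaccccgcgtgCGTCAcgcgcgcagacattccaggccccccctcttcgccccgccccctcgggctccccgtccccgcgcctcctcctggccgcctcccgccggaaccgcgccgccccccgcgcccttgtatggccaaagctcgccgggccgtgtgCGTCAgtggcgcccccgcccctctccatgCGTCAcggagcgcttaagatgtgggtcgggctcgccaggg
Fos (chr12:85473640-85473889, plus strand): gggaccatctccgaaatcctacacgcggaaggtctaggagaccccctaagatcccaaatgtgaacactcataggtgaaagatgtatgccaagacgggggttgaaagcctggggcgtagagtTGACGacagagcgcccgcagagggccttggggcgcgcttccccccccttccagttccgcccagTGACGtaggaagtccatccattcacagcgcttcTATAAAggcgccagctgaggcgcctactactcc
Dusp1 (chr17:26508473-26508722, minus strand): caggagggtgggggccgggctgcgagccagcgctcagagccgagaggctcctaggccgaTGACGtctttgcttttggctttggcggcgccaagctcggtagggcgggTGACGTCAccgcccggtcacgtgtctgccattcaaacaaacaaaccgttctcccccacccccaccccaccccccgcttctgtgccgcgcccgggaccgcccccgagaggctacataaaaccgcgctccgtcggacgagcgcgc
Nr4a1 is shown because it had the smallest p of the members, Fos as the most used marker of this response, and Dusp1 for its full element.

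The sequence TGACG was present in 13 of the 24 member promoters (54.2%), against 24.5% of the 12388 promoters chosen in the same way over all genes. Nr4a1 held 4 copies, all on the opposite strand, the nearest 36 to 40 bases before the start. Nr4a2 also held 4, and Dusp1 and Cebpb held 3 each. Numbers of copies were not compared with those in all promoters. Fos held 2, the nearer at 62 to 66 bases. The full TGACGTCA was present in 2 members (Dusp1 and Maff; 8.3%) against 2.50% of all promoters. CArG boxes, the SRF sites, were present in Dusp5, Egr2 and Zfp36 (12.5%) against 1.17%. TATAAA was found in Fos, Nr4a2 and Zfp36l1 (12.5% against 7.90%), and the AP-1 site TGACTCA in none (3.49% of all promoters). These are letters in a window and not measured binding. Fosl1, Egr1, Egr3, Klf10, Nr4a3, Myc, Ier2 and Sik1 had no promoter in this set and were not searched. Sites further than 250 bases before the start were not searched in any member. Rhob, Socs3, Dusp2, Fosl2, Ier3, Ier5, Jun, Jund and Klf6 held none of the 5 sequences searched in their 250 bases.

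No member passed the test between caffeine and vehicle. In edgeR's quasi-likelihood test over 13829 genes, 28 members had enough counts to be tested and 0 passed a Benjamini-Hochberg adjusted p of 0.05 (FDR 0.05), where 0.00723% of all genes did, a single gene that is not a member. At an unadjusted p under 0.05 there was 1 member of 28, Nr4a1, higher with caffeine, against 5.20% of all genes (3.13% higher and 2.07% lower). DESeq2 also passed 0 members at FDR 0.05 (0.130% of all genes). It had 1 member at an unadjusted p under 0.05 (4.53% of all genes). The smallest edgeR adjusted p of any member was 0.943 (Nr4a1), followed by 0.992 (Rhob), and it was 0.999 for each of the others. Log2 fold changes, caffeine minus vehicle, ran from -0.03 (Egr1) to 0.38 (Nr4a1). The 95% interval of the difference lay within a 1.5-fold change either way for 19 of 28 members and within a log2 change of 1 either way for 27, the exception being Klf4. Larger responses of most members were thus outside the interval that these libraries gave, and smaller ones could not be detected.

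**Figure D1:**
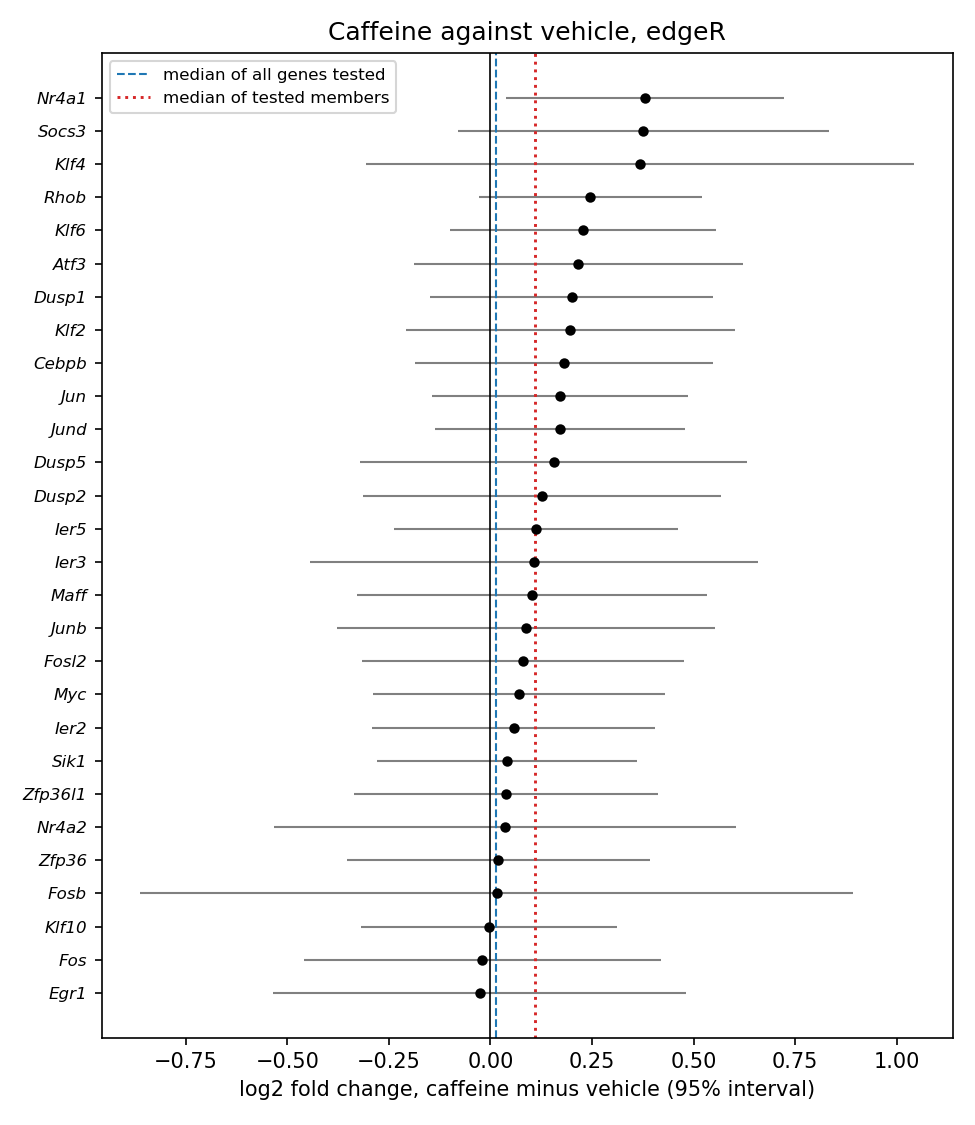
Log2 fold change of the 28 tested members, caffeine minus vehicle, with 95% intervals from edgeR. Dotted and dashed lines mark the median of the members (0.11) and of all genes tested (0.01). The interval of Nr4a1 alone lies above 0, and no adjusted p passed.

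The direction was mostly positive: 25 of 28 tested members had a positive log2 fold change, where 53.0% of all genes did, and the median was 0.11, against 0.01 over all genes tested. Without scaling factors these counts were 28 of 28 and 66.4%. The groups did not overlap, with all caffeine libraries above both vehicle libraries, for Nr4a1, Rhob and Socs3. That is 3 of 28 members, against 11.2% of all genes, a share near the background, and 0 members were lower without overlap (9.27% of all genes, 20.4% in either direction).

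Those 3 members come first. Nr4a1 encodes an orphan nuclear receptor (NUR77) and lies on chr15:101266846-101274794 (mm10, plus strand). It had 15.0 and 15.4 CPM in vehicle replicates 1 and 2, and 21.8, 18.3 and 19.3 CPM in caffeine replicates 1, 2 and 3. The vehicle libraries were close together, and the lowest caffeine library, replicate 2, stood above both. Mean levels were 15.2 ± 0.254 CPM (SD, n = 2) with vehicle and 19.8 ± 1.84 CPM (SD, n = 3) with caffeine. The log2 fold change was 0.38 (SE 0.16, 95% interval 0.04 to 0.72, edgeR adjusted p = 0.943). Leaving out 1 library at a time gave 0.31 to 0.44.

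Rhob, a small GTPase that acts on actin and on endosomes, lies on chr12:8497759-8499985 (minus strand). Its levels were 129 and 121 CPM for the vehicle pools against 158, 138 and 149 CPM for the caffeine pools. Caffeine replicate 2 was again the lowest of its group, and the difference was 0.25 (SE 0.13, 95% interval -0.03 to 0.52, edgeR adjusted p = 0.992). Socs3, which inhibits JAK and STAT signalling downstream of cytokine receptors, had 5.11 and 5.42 CPM across the vehicle pools, then 7.68, 6.36 and 6.44 CPM across those given caffeine. The groups were apart, with caffeine replicate 1 the highest, and the log2 fold change of 0.38 (SE 0.21) had an interval from -0.08 to 0.83.

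**Figure D2:**
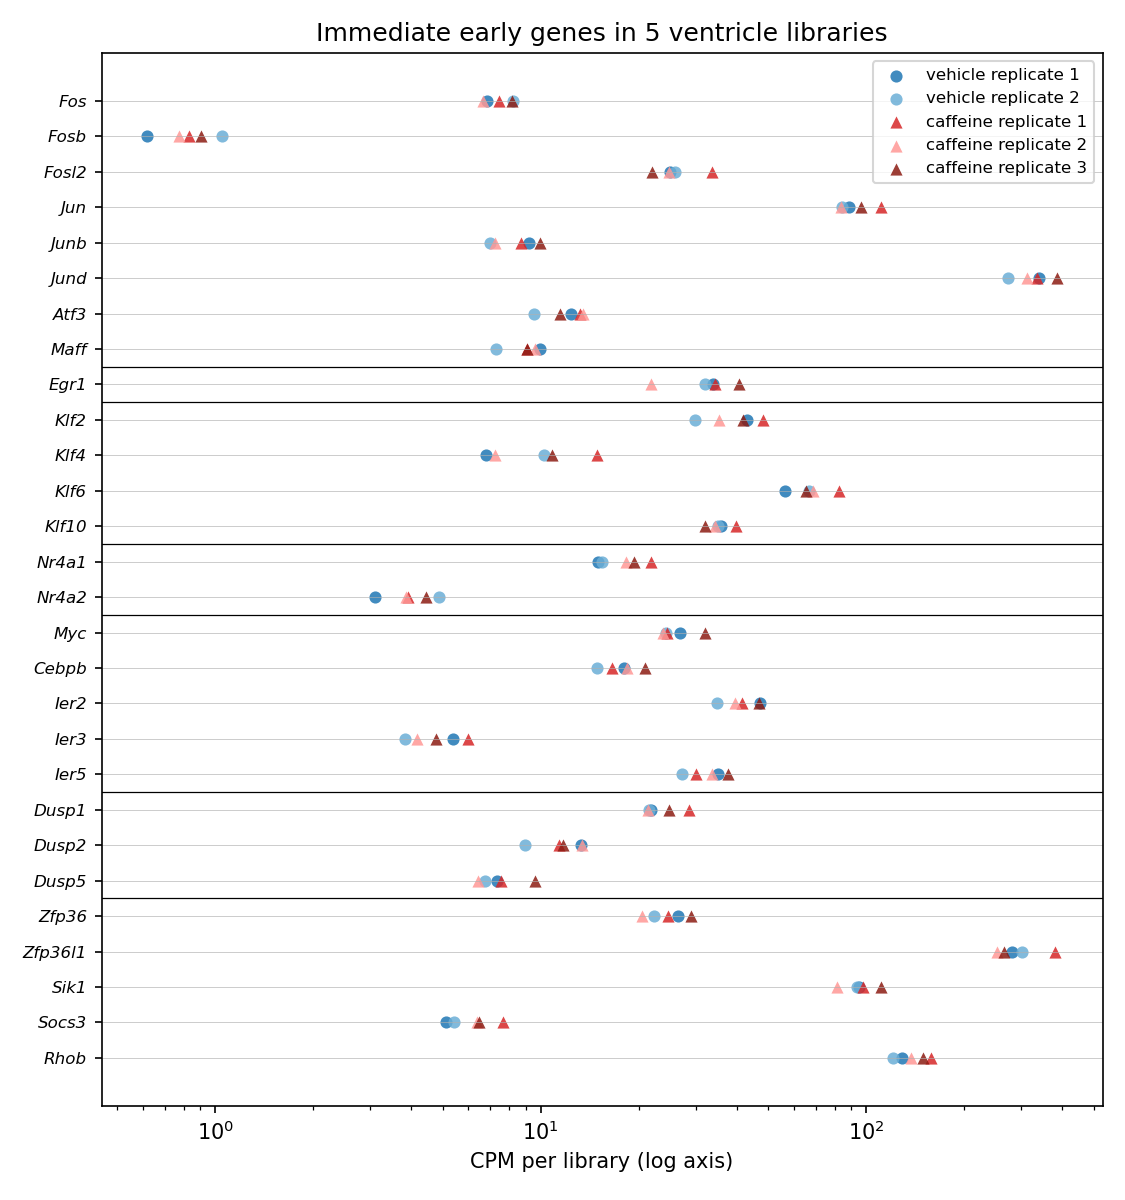
CPM (log axis) of the 28 tested members in each of the 5 libraries, circles for vehicle and triangles for caffeine, with lines between roles. Vehicle and caffeine symbols are apart in Nr4a1, Socs3 and Rhob and overlap in the other 25 members.

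Fos and its relatives, the subunits that pair with Jun proteins in AP-1, were at low levels. Fos (chr12:85473901-85477270, plus strand) had 6.84 and 8.24 CPM for the vehicle pools against 7.47, 6.66 and 8.17 CPM for the caffeine pools. It was the member with the smallest range over the 5 libraries, 1.23-fold from lowest to highest, and its log2 fold change was -0.02 (SE 0.20, 95% interval -0.46 to 0.42). Fosb had 0.618 and 1.05 CPM across the vehicle pools, then 0.831, 0.774 and 0.908 CPM across those given caffeine, from 15 to 23 counts a library. The caffeine libraries of Fosb lay between the vehicle libraries (log2 fold change 0.01, SE 0.40, 95% interval -0.86 to 0.89). Fosl2, an AP-1 subunit of slower kinetics, ran from 22.0 to 33.7 CPM, highest in caffeine replicate 1. Fosl1 had 1 count in each vehicle library and 0 in each caffeine library, where a count of 0 allows up to 0.125 to 0.136 CPM (counting error only), and no fold is given.

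Jun and Jund stood well above the Fos genes. On a scale of CPM per kilobase of transcript, the mean level over 5 libraries was 197 for Jund, 29.1 for Jun and 4.66 for Junb, against 4.02 for Fosl2, 3.55 for Fos and 0.221 for Fosb. Jund, which many cells express without stimulation, was the highest of all members on that scale. Its libraries had 340 and 273 CPM for the vehicle pools against 336, 313 and 386 CPM for the caffeine pools, a log2 fold change of 0.17 (SE 0.14, 95% interval -0.14 to 0.48) with overlapping groups. Jun (chr4:95049036-95052222, minus strand) had 88.4 and 84.4 CPM across the vehicle pools, then 111, 83.8 and 96.6 CPM across those given caffeine. Caffeine replicate 1 was the highest and caffeine replicate 2 the lowest of all libraries, so the caffeine group spanned the vehicle group (0.17, SE 0.14, 95% interval -0.14 to 0.49). Without caffeine replicate 1 the value for Jun was 0.06, and without caffeine replicate 2 it was 0.27. Junb ran from 7.01 to 9.99 CPM.

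Atf3, a stress-induced factor that pairs with Jun, had 12.4 and 9.56 CPM for the vehicle pools against 13.2, 13.5 and 11.5 CPM for the caffeine pools. Only vehicle replicate 2 was low (log2 fold change 0.22, SE 0.19, 95% interval -0.19 to 0.62). The value was 0.02 without vehicle replicate 2 and 0.41 without vehicle replicate 1. Maff, a small Maf protein, ran from 7.29 to 9.93 CPM and was likewise lowest in vehicle replicate 2.

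Among the EGR zinc fingers, which growth factor signals induce through SRF, 1 member could be tested. Egr1 had 33.9 and 31.9 CPM across the vehicle pools, then 34.3, 21.8 and 40.8 CPM across those given caffeine. The lowest and the highest value were both in caffeine libraries, replicates 2 and 3, a 1.87-fold range. Its log2 fold change was -0.03 (SE 0.23, 95% interval -0.54 to 0.48), and it ran from -0.23 without caffeine replicate 3 to 0.19 without caffeine replicate 2. Egr2 had 10 and 6 counts in vehicle and 9, 5 and 9 in caffeine, and Egr3 had 4 and 1 against 5, 1 and 3. Both were lowest, or tied for lowest, in caffeine replicate 2, but these counts are too few to rank the libraries.

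Among the KLF zinc fingers, Klf4 and Klf2 varied widely between libraries and Klf10 little. Klf4, a factor of endothelial and epithelial cells that also acts in pluripotency, had 6.80 and 10.2 CPM for the vehicle pools against 14.9, 7.22 and 10.8 CPM for the caffeine pools. That 2.17-fold range was the widest of the tested members, and the log2 fold change of 0.37 had an SE of 0.30 (95% interval -0.31 to 1.04). Without caffeine replicate 1 it was 0.09, and without vehicle replicate 2 it was 0.67. Klf2, which endothelial and endocardial cells induce under flow, had 43.1 and 29.8 CPM across the vehicle pools, then 48.3, 35.4 and 41.8 CPM across those given caffeine. Vehicle replicate 2 and caffeine replicate 2 were the low libraries of Klf2, and the difference of 0.20 (SE 0.19, 95% interval -0.21 to 0.60) was -0.07 without vehicle replicate 2 and 0.49 without vehicle replicate 1.

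The 10 endothelial and endocardial markers, all tested and none at 0, summed to 1780 and 1881 CPM for the vehicle pools against 1838, 1599 and 1653 CPM for the caffeine pools, so the library lowest in Klf2 was the highest in these markers. Their part in the Klf2 and Klf4 values was not tested. Klf6, a widely expressed stress and injury factor, had 56.4 and 66.9 CPM across the vehicle pools, then 82.8, 68.5 and 65.4 CPM across those given caffeine. Caffeine replicate 1 alone was above the rest (0.23, SE 0.15, 95% interval -0.10 to 0.56), and leaving out 1 library gave 0.11 (vehicle replicate 1) to 0.33 (vehicle replicate 2). Klf10, a TGF-beta response gene, ran from 32.1 to 39.8 CPM, with overlapping groups and an interval from -0.32 to 0.31.

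The other NR4A receptors, which bind the same DNA element, were tested in part. Nr4a2 had 3.09 and 4.87 CPM for the vehicle pools against 3.90, 3.87 and 4.45 CPM for the caffeine pools. All caffeine libraries of Nr4a2 lay between the vehicle libraries (log2 fold change 0.04, SE 0.26, 95% interval -0.53 to 0.60). Nr4a3 had 6 and 11 counts in vehicle and 10, 7 and 3 in caffeine, too few to test. Whether Nr4a1 differed from Nr4a2 in response was not tested.

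Of the other transcription factors, Myc, which drives growth and ribosome production, had 26.7 and 24.3 CPM across the vehicle pools, then 24.5, 23.8 and 32.1 CPM across those given caffeine. Only caffeine replicate 3 was high, and the log2 fold change was 0.07 (SE 0.17, 95% interval -0.29 to 0.43). The deposited RefSeq transcript table splits Myc over 4 accessions whose counts came in equal pairs in every library, so transcripts of Myc were not compared. Cebpb, a factor of inflammatory and metabolic responses, had 18.0 and 14.8 CPM for the vehicle pools against 16.6, 18.4 and 20.9 CPM for the caffeine pools. Vehicle replicate 2 was the lowest again (0.18, SE 0.17, 95% interval -0.19 to 0.55), and the value was 0.02 without it and 0.33 without vehicle replicate 1. Ier2, Ier3 and Ier5 had log2 fold changes of 0.06, 0.11 and 0.11, and each was lowest in vehicle replicate 2.

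Phosphatases and most other brakes on signalling had overlapping groups. Dusp1, which inactivates MAP kinases, had 21.9 and 21.5 CPM across the vehicle pools, then 28.6, 21.4 and 24.7 CPM across those given caffeine. Caffeine replicate 2 was level with vehicle, and the log2 fold change was 0.20 (SE 0.16, 95% interval -0.15 to 0.55), with 0.09 without caffeine replicate 1 and 0.30 without caffeine replicate 2. Dusp2 and Dusp5, which act mainly on ERK, had 0.13 and 0.16. Zfp36 and Zfp36l1, proteins that bind AU-rich messages and speed their decay, had 0.02 and 0.04. Zfp36l1, second to Jund at 98.9 CPM per kilobase, was highest in caffeine replicate 1. Sik1, a kinase that cyclic AMP induces and that restrains the CREB coactivators, had 94.8 and 93.7 CPM for the vehicle pools against 97.8, 81.6 and 111 CPM for the caffeine pools. Its log2 fold change was 0.04 (SE 0.15, 95% interval -0.28 to 0.36).

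Libraries of the caffeine group stood apart from each other. For each tested member the log2 CPM was set against its mean over the 5 libraries. Averaged over the 28 members this deviation was -0.04 and -0.12 in vehicle replicates 1 and 2, and 0.14, -0.10 and 0.11 in caffeine replicates 1, 2 and 3, while the average over all genes stayed between -0.03 and 0.03. Members above their own mean numbered 14 and 6 with vehicle, against 22, 8 and 23 with caffeine. Over all genes the shares above were 48.6% and 49.8% with vehicle, against 51.7%, 52.4% and 50.9% with caffeine. On this average caffeine replicate 2 was thus close to vehicle replicate 2, and caffeine replicates 1 and 3 were the high libraries. Single members differed between the replicates numbered 2, and in both directions. Atf3 stood at -0.32 in vehicle replicate 2 and 0.18 in caffeine replicate 2, and Egr1 at 0.002 and -0.55.

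**Figure D3:**
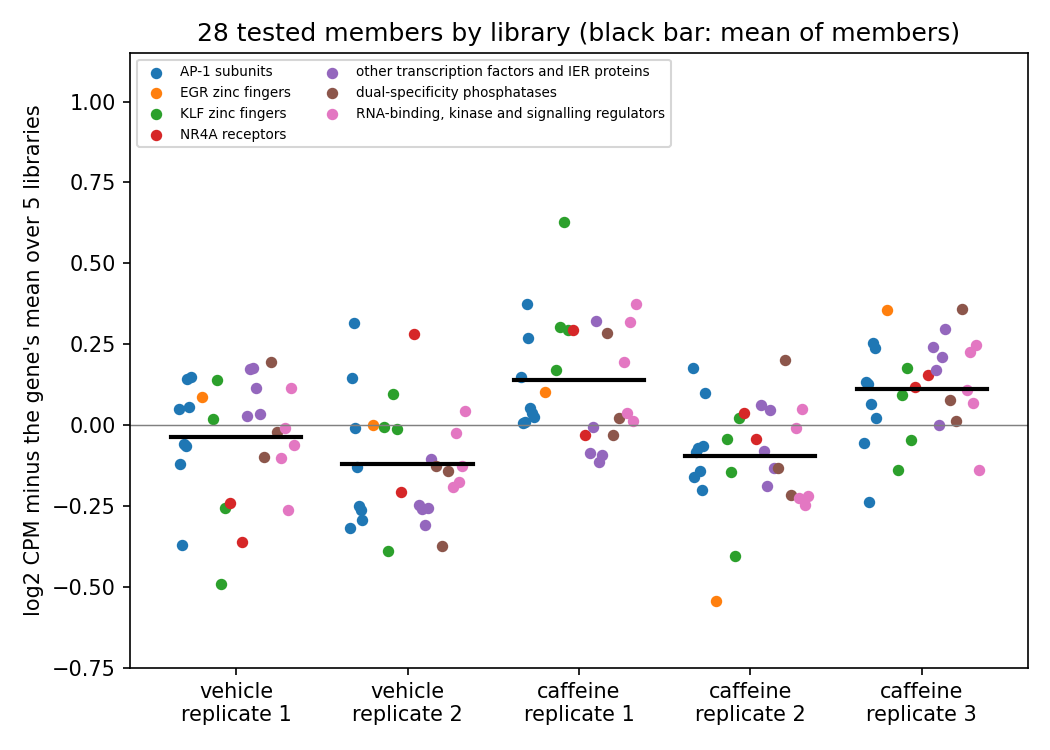
Log2 CPM of each of the 28 tested members minus its own mean over the 5 libraries, coloured by role, with the mean of the members as a black bar. The bars stand at 0.14 and 0.11 in caffeine replicates 1 and 3, at -0.10 in caffeine replicate 2 and at -0.12 in vehicle replicate 2.

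Caffeine replicate 2 was the lowest caffeine library for 20 of 28 members, where 26.6% of all genes had their lowest caffeine value there. Vehicle replicate 2 was the lowest of all 5 libraries for 11 members (18.7% of all genes) and caffeine replicate 1 for 0 (22.8%). The standard deviation within groups, on the log2 scale, was above the trend for genes of the same abundance in 21 of 28 members, against 52.6% of all genes. It reached 0.49 in Klf4 and 0.38 in Egr1, and the median was 0.20 over the members and 0.18 over all genes.

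Roles differed in which library was high. The KLF genes averaged 0.35 in caffeine replicate 1 and 0.02 in caffeine replicate 3. For the other transcription factors and IER proteins the average was the reverse, 0.004 in caffeine replicate 1 and 0.18 in caffeine replicate 3. Ier3, in that role, went against its average, with 0.32 in caffeine replicate 1 and 0.0003 in caffeine replicate 3. The AP-1 subunits stood at 0.12 and 0.07 in these 2 libraries. The differences between roles were not tested.

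Cardiomyocyte markers were lower with caffeine in sum, at 38472 and 35324 CPM with vehicle against 32174, 32587 and 32615 CPM with caffeine, with groups that did not overlap. Of these 10 genes 2 had a positive log2 fold change (53.0% of all genes), the median was -0.21, 4 were lower without overlap (9.27% of all genes), and 0 passed FDR 0.05. The sign is opposite to that of the members' median, and medians of the other marker lists had either sign. They were 0.22 for erythroid, 0.84 for macrophage and 0.17 for epicardial markers. They were -0.11 for endothelial and endocardial and -1.41 for hepatic endoderm markers. The part of any of these in the members' values was not tested.

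The erythroid markers, 10 of 10 tested and none at 0, were low in the 2 libraries where the members' average was lowest. Their summed level was 12586 and 7236 CPM across the vehicle pools, then 10398, 7758 and 12218 CPM across those given caffeine, the 7236 and the 7758 being vehicle replicate 2 and caffeine replicate 2. Macrophage markers (9 of 13 tested) summed to 40.3 to 44.2 CPM in vehicle and 45.3 to 67.6 CPM in caffeine, highest in caffeine replicate 1. Most of each sum was Lyz2, at 36.3 and 32.2 CPM with vehicle against 48.0, 43.5 and 35.2 CPM with caffeine. Of the genes that define macrophages, Csf1r and Cd68 were tested, while Ptprc had 3 to 19 counts and Aif1 0 to 6. Hepatic endoderm markers (9 of 13 tested) summed to 163 CPM in vehicle replicate 2 and to 15.8 to 66.9 CPM in the other 4 libraries, and Alb was at 0 in 3 libraries. Rn45s, the ribosomal RNA precursor, had 8910 and 5303 CPM for the vehicle pools against 1683, 2724 and 2672 CPM for the caffeine pools. The part of these cell types and of RNA composition in the members' values was not tested.

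The members' direction depended on single libraries. Without vehicle replicate 2, 16 of 28 members were positive (50.6% of all genes), with a median of 0.02. Without vehicle replicate 1, 24 were positive (51.9% of all genes), with a median of 0.21. Without caffeine replicate 2 all 28 were positive (53.0% of all genes), with a median of 0.18. Without caffeine replicate 3, 18 were positive (51.7% of all genes), with a median of 0.10. Without caffeine replicate 1, 22 were positive (51.7% of all genes), with a median of 0.08. Member transcripts were also richer in G and C than most, at a median of 54.7% against 50.4% over all genes, with 27 of 32 members above the latter. After a correction per library for GC content and transcript length, 17 of 28 members were positive (44.3% of all genes) and the median was 0.04, with -0.02 over all genes. The same limma fit with no correction gave 25 positive (52.3% of all genes) and a median of 0.12.

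**Figure D4:**
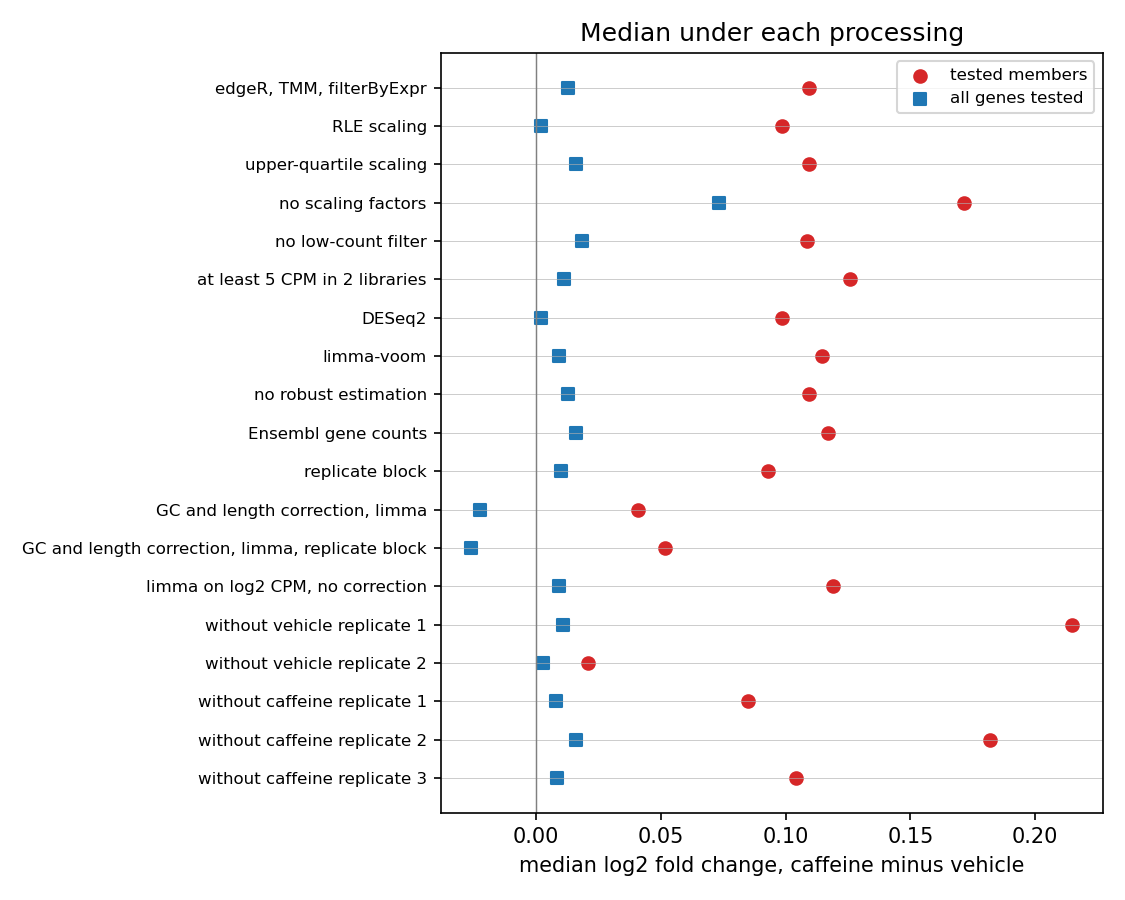
Median log2 fold change, caffeine minus vehicle, of the tested members (circles) and of all genes tested (squares) under each processing. The members' median runs from 0.02 without vehicle replicate 2 to 0.21 without vehicle replicate 1, while that of all genes stays between -0.03 and 0.07.

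Other early response genes from a list of 36, none of them a member, also held none that passed. Of 33 tested, 0 passed FDR 0.05 and 26 were positive (53.0% of all genes). At an unadjusted p under 0.05, 4 were higher (3.13% of all genes) and 0 lower (2.07%). Their median was 0.12. The smallest p belonged to Gadd45g, a stress-induced growth arrest gene, with 10.9 and 10.3 CPM across the vehicle pools, then 16.1, 14.8 and 15.4 CPM across those given caffeine (log2 fold change 0.54, SE 0.17, edgeR adjusted p = 0.725). Nfkbiz, an NF-kappaB cofactor, came next, with 1.48 and 1.64 CPM for the vehicle pools against 3.11, 2.58 and 3.40 CPM for the caffeine pools (0.96, SE 0.30, edgeR adjusted p = 0.725). Groups did not overlap for either. Of the 33 tested, 10 were higher without overlap (11.2% of all genes) and 0 were lower without overlap (9.27%). Averaged as for the members, these genes stood at -0.003 and -0.18 in vehicle and at 0.10, -0.03 and 0.11 in caffeine, again lowest in vehicle replicate 2.

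The kinases and factors upstream of the members, 30 of 30 tested, had 23 positive (53.0% of all genes) and a median of 0.11, with 0 past FDR 0.05. The CREB coactivator Crtc2, which Sik kinases hold in the cytoplasm, had the smallest p: 11.5 and 13.2 CPM across the vehicle pools, then 20.0, 15.2 and 21.7 CPM across those given caffeine (0.62, SE 0.19, edgeR adjusted p = 0.725). Caffeine replicate 2 was the lowest of the caffeine libraries here too. Mkl1, a coactivator of SRF, had 0.29 (SE 0.14). The feedback genes of ERK signalling, 13 of 13 tested, had 9 positive (53.0% of all genes) and a median of 0.02. Spry1 and Dusp4, an inhibitor of receptor signalling and a nuclear MAP kinase phosphatase, had 0.44 (SE 0.18) and 0.39 (SE 0.17), and neither passed.

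Annotation changed the value of a few members. Dusp5 had 2.23 times as many counts in the deposited Ensembl gene table as in the RefSeq table, and its log2 fold change went from 0.16 to -0.001. Nr4a3 had 2.62 times as many, with 20 and 27 Ensembl counts for vehicle against 25, 14 and 11 for caffeine, enough to be tested in that table. Its log2 fold change there was -0.51 (SE 0.44, edgeR adjusted p = 0.966), larger in size than that of any member in the RefSeq fit, with overlapping groups. An antisense gene shares 547 exon bases with Dusp5 in the reference annotation. Fosl1 had 24 to 32 Ensembl counts a library where RefSeq gave 0 or 1, and the opposite-strand gene Ccdc85b shares 1163 exon bases with it. The Ensembl value of Fosl1 was 0.08 (SE 0.35). Jund had 0.807 times the RefSeq count, with 877 shared antisense bases. Whether the authors' counting used strand is not given in the sources used here, so counts of Fosl1, Dusp5, Jund, Zfp36l1, Cebpb, Jun, Junb, Zfp36 and Dusp1, each of which shares exon bases with an opposite-strand gene, are uncertain. Nr4a1 had the same Ensembl counts as RefSeq counts in each library and shares no exon base with another gene.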

How the data were processed

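Total RNA of 5 pooled ventricle samples was sequenced after TruSeq library preparation, per the labels' protocols. The authors deposited estimated counts per gene and transcript, for RefSeq and Ensembl models, and the submitters' processing notes name TopHat, Partek and mm10 (GRCm38). Their versions, the read length and the strand setting are not stated there. RefSeq gene counts were rounded and filtered (filterByExpr, 13829 of 18307 genes kept), scaled by TMM and tested, caffeine against vehicle, with edgeR 4.0.16 (quasi-likelihood, robust) in R 4.3.3. P-values were Benjamini-Hochberg adjusted over all genes tested, with a threshold of 0.05, and intervals are 95%. Per-library levels are CPM with TMM, log2 CPM used a prior count of 2, and floors are 3 counts. Deposited gene stops were 1 past the reference end for 5907 of the genes that share its start (equal for 249), so printed ends are the stop less 1.

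Alternatives were RLE, upper-quartile or no scaling, no filter or 5 CPM in 2 libraries, DESeq2 1.42.0, limma-voom (3.58.1), no robust estimation, Ensembl counts, a replicate block, a correction for GC content and length, and each library left out. The members and all gene lists were chosen with earlier results of these data known. Values in every library and full statistics go to the 10 tested members with the smallest p, the 5 with the largest range, and Fos, Jun, Egr1, Myc and Nr4a1, and at most 3 genes of each other list, by p, are named, apart from markers given by their counts. Rn45s and the macrophage and hepatic markers named with counts were singled out after their values were seen. The test was tried on simulated data. The Ensembl transcript table was not used here.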

Additional observations from a re-analysis of the deposited data

How the results depend on the processing

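In all 18 alternatives 0 of the 28 members tested in the reported fit passed FDR 0.05, and the median stayed positive. Genes past FDR 0.05 over the whole table, 1 in the fit reported, numbered 6 with no filter, 18 with DESeq2, 2 with Ensembl counts, 52 with the replicate block, 0 with the GC and length correction, with or without that block, 0 in the limma fit without correction (chosen after seeing the data), and 0 to 18 with 1 library left out. The cause of these moves was not tested. The direction of 20 members turned in at least 1 alternative, in 66 of 502 values in all, each with an interval that already included 0. Without scaling factors Fos had a log2 fold change of 0.040, Egr1 0.035 and Klf10 0.057. With at least 5 CPM Klf10 had 0.0037. With Ensembl counts Fos had 0.0034, Klf10 0.00097 and Dusp5 -0.00067.

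Replicate numbers were not shown to pair the libraries. Only 2 numbers are shared, and same-numbered libraries had correlations of deviations from the group mean of -0.02 and 0.13. Vehicle replicate 1 with caffeine replicate 3, which share no number, had 0.13. The deviations of 2 vehicle libraries mirror each other, so these correlations cannot decide whether the numbers pair. With the replicate block 18 of 28 members were positive (52.1% of all genes), with a median of 0.09. Fosb then had -0.023, Junb -0.021, Klf10 0.058, Nr4a2 -0.0045, Myc -0.078, Ier2 -0.0032, Dusp5 -0.014, Zfp36 -0.11 and Sik1 -0.077. With the GC and length correction Fosb had -0.063, Fosl2 -0.017, Junb -0.065, Jund -0.042, Cebpb -0.025, Ier2 -0.046, Zfp36 -0.037 and Sik1 -0.072. With the correction and the block together Fosb had -0.072, Junb -0.11, Jund -0.063, Klf10 0.032, Nr4a2 -0.033, Myc -0.078, Cebpb -0.048, Ier2 -0.055, Dusp5 -0.050, Zfp36 -0.13 and Sik1 -0.14.

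With 1 library left out, log2 fold changes ran from -0.32 to 0.41 in Fosb, -0.23 to 0.19 in Egr1, -0.097 to 0.061 in Klf10, -0.26 to 0.37 in Nr4a2, -0.17 to 0.15 in Zfp36l1, -0.15 to 0.094 in Fos, -0.12 to 0.30 in Junb, -0.0064 to 0.34 in Jund, -0.13 to 0.34 in Maff, -0.070 to 0.49 in Klf2, -0.080 to 0.15 in Myc, -0.17 to 0.29 in Ier2, -0.14 to 0.38 in Ier3, -0.086 to 0.31 in Ier5, -0.16 to 0.44 in Dusp2, -0.12 to 0.15 in Zfp36, -0.12 to 0.20 in Fosl2, -0.012 to 0.28 in Dusp5 and -0.072 to 0.15 in Sik1. Where a group kept 1 library, that library was taken to vary like the others. Nr4a1, Socs3, Rhob, Klf4, Klf6, Jun, Dusp1 and Atf3 stayed positive in every alternative run. Leaving out 1 library gave 0.06 to 0.27 in Jun, 0.09 to 0.30 in Dusp1, 0.11 to 0.33 in Klf6, 0.02 to 0.41 in Atf3, 0.02 to 0.33 in Cebpb and 0.09 to 0.67 in Klf4. Depth limits Egr2 and Egr3, which the low-count filter removed in both gene tables, Fosl1 and Nr4a3, which it removed from the RefSeq table, and Fosb.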

Other observations

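Stress genes outside the early response were read in the same fit, and 0 of them passed FDR 0.05. Of 11 heat shock genes, 3 had positive log2 fold changes (53.0% of all genes), the median was -0.06, and at an unadjusted p under 0.05 3 were lower (2.07% of all genes) and 1 higher (3.13%) with caffeine. Hsp90aa1, a cytosolic chaperone, had 987 and 1042 CPM with vehicle against 695, 893 and 719 CPM with caffeine (log2 fold change -0.40, SE 0.14, edgeR adjusted p = 0.851). Hspa1a, an inducible chaperone, had the opposite sign at a low level, 1.28 and 1.96 CPM with vehicle against 3.07, 2.28 and 2.86 CPM with caffeine (0.76, SE 0.32, edgeR adjusted p = 0.949).

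Hypoxia genes had 8 of 13 positive (53.0% of all genes) and a median of 0.01. Vegfa, the endothelial growth factor, had 62.9 and 66.0 CPM with vehicle against 93.8, 82.1 and 88.6 CPM with caffeine (0.45, SE 0.13, edgeR adjusted p = 0.691), while the glycolytic enzyme Pgk1 had -0.32 (SE 0.13). Integrated stress response genes had 8 of 10 positive (53.0% of all genes) and a median of 0.09. Atf4, the factor at the head of that response, was at 0.36 (SE 0.14, edgeR adjusted p = 0.924). Epicardial markers, 7 of 7 tested, summed to 422 and 467 CPM with vehicle against 565, 466 and 416 CPM with caffeine.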
